A study of Mus musculus with 2 samples.

Results

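Genes of the LPS receptor complex and the Toll-like receptors, 10 in all, were followed in CMT93 cells. They were taken by symbol, using every non-control probe whose array gene name was Tlr4, Ly96, Cd14, Lbp, Tlr2, Tlr3, Tlr5, Tlr6, Tlr7 or Tlr9. These 10 genes, of 34761 gene symbols or array names on the arrays, had 13 probes in 23 spots. Tlr7 had 3 probes, Tlr4 had 2, and each of the other 8 genes had 1. CMT93 is an established mouse carcinoma cell line from the rectum, of strain C57BL/ICRF, grown in DMEM. Total RNA was measured on 2 one-colour (Cy3) arrays. The LPS array held cells stimulated with lipopolysaccharide (LPS), the glycolipid of the Gram-negative outer membrane. The dose was 3 µg/mL and the time 24 h. The control array held the line labelled as control; the labels repeat the stimulation text on both samples, and it was read as describing just the LPS sample. Each group had 1 array, so no test between the groups was possible, no difference below has a replicate check, and precision is limited by how few arrays there were.

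LPS is sensed by a relay of proteins. LPS-binding protein, encoded by Lbp, takes single LPS molecules out of bacterial membrane and passes them to CD14, and CD14 passes them to MD-2, the product of Ly96, which sits on the ectodomain of TLR4 and holds the lipid part. TLR4 then pairs with a further TLR4 and recruits adaptors that lead to NF-kB and interferon regulatory factors. Other Toll-like receptors read other microbial products. TLR2, paired with TLR1 or TLR6, reads bacterial lipopeptides, TLR5 reads flagellin, and TLR3, TLR7 and TLR9 read double-stranded RNA, single-stranded RNA and CpG DNA inside endosomes. In intestinal epithelium these receptors are known for low or restricted levels.

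The probes are the sequences that stand for the transcripts. Those of Lbp and Ly96 are shown because each covers far more genome than its 60 bases (3543 bases for Lbp, 3273 for Ly96), so that each reads across an intron, and that of Tlr2 because it was printed in 10 spots on each array. Each is given whole, with no base in capitals.
Lbp: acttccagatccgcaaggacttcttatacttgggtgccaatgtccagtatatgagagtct
Ly96: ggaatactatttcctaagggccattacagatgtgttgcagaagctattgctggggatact
Tlr2: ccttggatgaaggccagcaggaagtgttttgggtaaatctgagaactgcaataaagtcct
In mouse build mm9, which the file headers name, the Lbp probe lies at chr2:158154142-158157684 (plus strand), the Ly96 probe at chr1:16696289-16699561 (plus strand) and the Tlr2 probe at chr3:83640344-83640403 (minus strand). Whether the other probes lie in coding exons or untranslated parts was not analysed here. The longest run of bases that any of the 13 probes shared, on the same strand, with a probe of another gene was 16 bases.

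Of the 10 genes, 8 were well above background on both arrays, by the scanner software's own flag. Tlr2 was so on the LPS array only and Tlr5 on neither. Of the 8, Cd14 and Lbp (2 genes) stood 2-fold or more above the control array, 6 differed by less and 0 stood 2-fold or more below it. Over all 20380 genes measured on both arrays, 1.46% were at least 2-fold higher and 0.569% were at least 2-fold lower. The members were chosen with earlier results of these data known, so these shares are background and not a test. The median log2 difference, LPS minus control, was 0.19 over the 8 genes and -0.02 over all measured genes. Differences below are on this log2 scale after each array's 75th percentile was subtracted. The error after each ± comes from other probes printed 10 times, put into groups by brightness. It is the median, over the probes of the matching group, of the SD of their repeated spots. In the dimmest group this median was 0.14, while the SD of single probes reached 0.5, so errors of ± 0.14 can be too small. This error covers the slide, not the cultures.

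**Figure D1:**
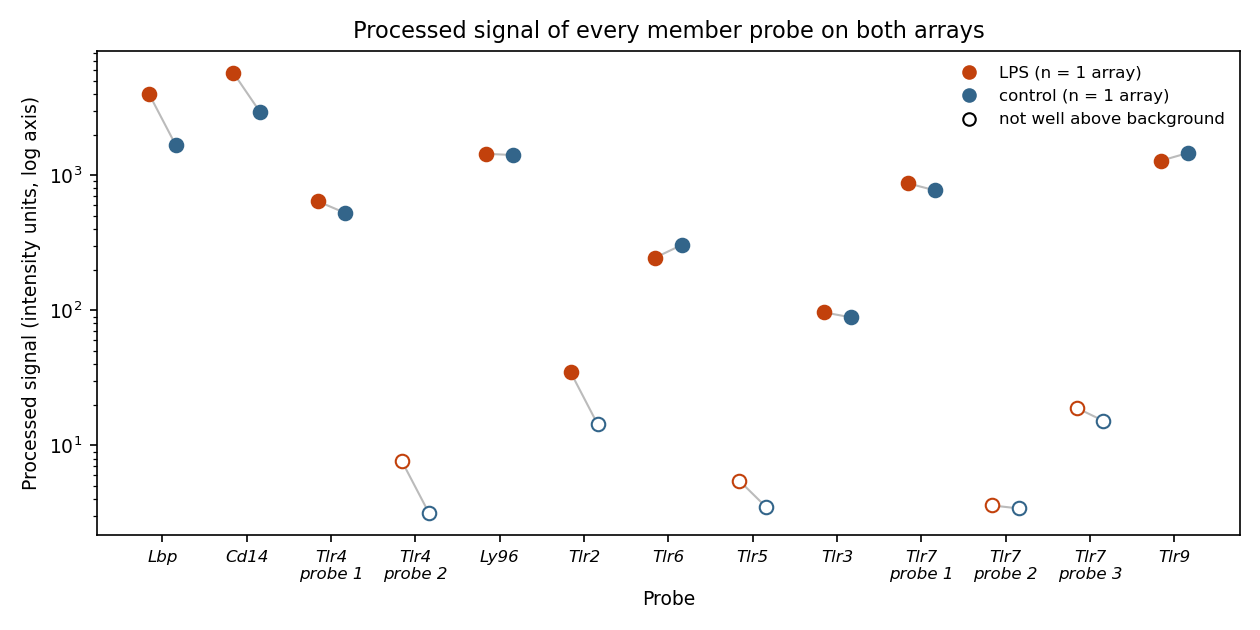
Processed signal (log axis, intensity units) of the 13 probes of the 10 genes, with the LPS array left and the control array right of each pair, 1 array each, and open circles where a probe was not well above background. Lbp, Cd14 and Tlr2 step down from the LPS to the control array, while Ly96, Tlr3 and Tlr9 are close to level; heights of different probes are not comparable.

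The carriers that bring LPS to its receptor had the higher differences. Lbp had a processed signal of 4000 on the LPS array, against 1660 on the control array. The LPS array was thus 2.49-fold higher for Lbp, a log2 difference of 1.31 ± 0.04. Cd14, which encodes the surface protein that receives LPS from LPS-binding protein, had 5730 on the LPS array, against 2920 on the control array. Its difference after the same subtraction was 1.02 ± 0.04, or 2.02-fold, at the edge of the 2-fold line. It fell just under that line with normexp background correction and with quantile normalization. The processed signals themselves stood just under 2-fold apart. Across all measured genes, 0.981% had a higher difference than Lbp and 1.44% had a higher one than Cd14. The Cd14 probe lies on chromosome 18 at 36884969 to 36885028 (mm9, minus strand). These are whole-culture RNA measurements, so a change in RNA per cell and a change in the number of cells that make it cannot be told apart.

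Probes near these 2 genes gave a local comparison, which was chosen after values were seen. Within 30 kb of the Cd14 probe there were 2 measured probes, those of Tmco6 at 0.02 ± 0.14 and of Ndufa2 at -0.04 ± 0.03. Within 30 kb of the Lbp probe there were 14, between -0.33 and 0.42. Most were repeated probes of overlapping intervals that the array names by position alone, 25769 to 27663 bases away. The 14 probes are thus fewer separate neighbours. Neither stretch thus held another measured probe as high as its carrier gene.

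Because macrophages express Cd14 strongly, leukocyte markers were read beside it. Of 12 such markers, 5 were measured on both arrays (Csf1r, Cd68, Itgam, Fcer1g and Cd3e), none of these 5 differed by 2-fold, and the median difference was 0.06. Their summed processed signal over all 12 was 11900 on the LPS array and 11500 on the control array, of which Itgam alone gave 7780 and 7520. Neither array had Lyz2, Tyrobp, Laptm5 or Ms4a1 well above background. Adgre1, a macrophage surface receptor gene, passed that flag just on the LPS array, where it was at least 1.96-fold higher, or at least 1.29-fold with normexp. Ptprc, the pan-leukocyte gene, passed it just on the control array, which puts LPS at least 3.03-fold lower, or at least 1.49-fold with normexp. The brightest negative control spot on the LPS array had a processed signal of 104, above Adgre1 at 30.3. On the control array the brightest had 60.1, above Ptprc at 52.9. The part of these markers in the Cd14 difference was not tested. Of 8 epithelial markers, 8 were measured, with a summed signal of 652000 on the LPS array and 755000 on the control array, and a median of -0.22. Krt18, Krt8 and Krt19 gave most of both sums, Krt18 alone 311000 and 354000. Of the 8 differences, 0 lay above 0. Both arrays measured 3 of 5 stromal markers, whose median stood at 0.33; the summed signal over all 5 was 330 on the LPS array and 288 on the control array.

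The signalling receptor and its partner differed little. Tlr4, the receptor that spans the membrane, was read by a probe printed in 2 spots. Its spots stood at 623 and 662 on the LPS array, against 521 and 535 on the control array, so the spots of the arrays did not overlap. The difference was 0.33 ± 0.06, a 1.26-fold higher level, with 8.67% of measured genes above it, and the spots gave 0.30 and 0.35. Ly96 had 1440 on the LPS array and 1410 on the control array. Its difference of 0.07 ± 0.06 was close to the slide error. The 4 genes of the LPS relay thus had differences of 1.31, 1.02, 0.33 and 0.07 for Lbp, Cd14, Tlr4 and Ly96.

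**Figure D2:**
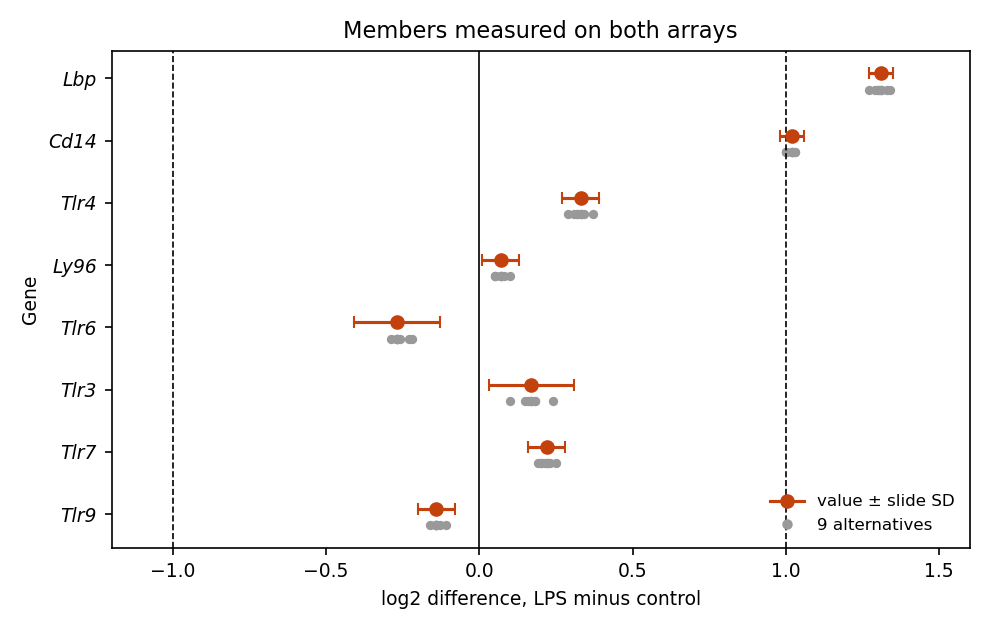
Log2 difference, LPS minus control, of the 8 genes measured on both arrays, as the value with the slide SD (bar) and, in grey beneath it, the 9 alternative settings. Lbp and Cd14 sit at 1.31 and 1.02, at or past the dashed 2-fold line, and the others lie between -0.27 and 0.33.

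Tlr4 also had a probe that stayed dark. It lies at chr4:66590077-66590136 (mm9), 86607 bases from the bright probe at chr4:66503470-66503529. Its processed signal was 7.64 on the LPS array and 3.17 on the control array, the control value being one the software fills in at background. It was not well above background on either array, so it gives no fold for Tlr4. After background subtraction, 6 of 308 negative control spots on the LPS array and 115 of 308 on the control array were at or above it. The first 30 bases of each show that they are separate sequences.
Tlr4 bright probe: ttgagaacattttggggaggaagaaaggtc
Tlr4 dark probe: gaaattgggtactcatgtttacatgtggac

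Among the lipopeptide receptors, Tlr2 was higher by a bound only and Tlr6 was not. The 10 spots of the Tlr2 probe ran from 26.2 through a median of 35.0 to 42.3 on the LPS array, against 11.7 through 13.6 to 18.3 on the control array. No control spot reached the lowest LPS spot. They averaged 34.9 ± 4.5 on the LPS array and 14.4 ± 2.16 on the control array (SD over 10 spots of 1 array). The well-above-background flag was set for 10 of 10 spots on the LPS array and 0 of 10 on the control array, though all 10 passed the software's looser flag there. The bound for Tlr2 sets its averaged LPS value against the lowest signal that counts as well above background on the control array. It was 2.24-fold higher (log2 1.17), and 1.9-fold with background-subtracted signal floored at 1. It was 1.28-fold with normexp, whose added offset of 50 exceeds these signals. The bound is not a strict limit, since single spots gave log2 differences from 1.03 to 1.58 and control spots without the flag reached 18.3. Averaged over its spots and after background subtraction, Tlr2 was reached or exceeded by 5 of 308 negative control spots on the LPS array and 7 of 308 on the control array. Of 674 genes above background on the LPS array only, 45.0% had a bound of at least 2-fold, so a bound of this size is common in that class.

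**Figure D3:**
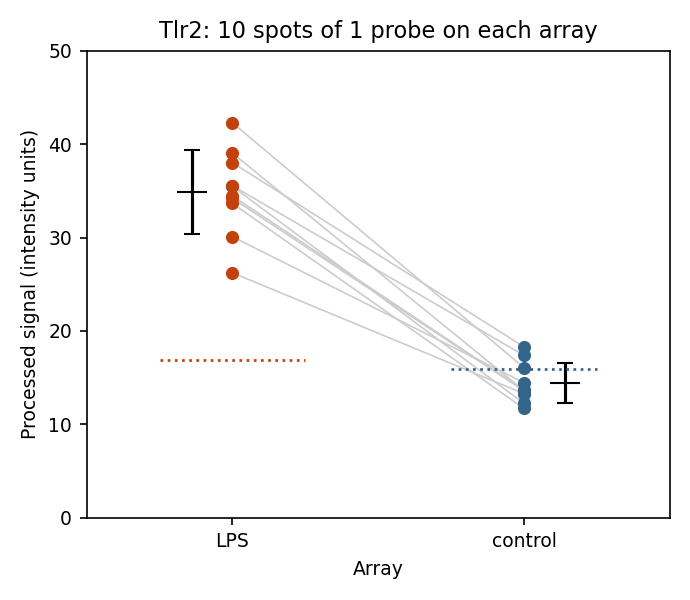
Processed signal of the 10 spots of the Tlr2 probe on the LPS array (left) and the control array (right), with lines joining spots at the same place, black bars for mean ± SD, and dotted lines for the lowest signal well above background on each array (16.9 and 15.9). The LPS spots lie between 26.2 and 42.3, all above the control spots, which lie between 11.7 and 18.3.

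Tlr6, whose product pairs with TLR2, had 245 on the LPS array and 305 on the control array. Its difference was -0.27 ± 0.14, a 1.21-fold lower level, the lowest of the 8 genes. Tlr1, the other partner of TLR2 and no member here, was above background on neither array. Tlr5, the flagellin receptor, was listed at 5.50 on the LPS array and 3.50 on the control array and was above background on neither. After background subtraction, 10 of 308 negative control spots on the LPS array and 26 of 308 on the control array stood at or above it. Its spot passed the software's looser flag on the LPS array and not on the control array.

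The endosomal receptors differed by less than 1.2-fold each. Tlr3, for double-stranded RNA, had 96.8 on the LPS array and 88.9 on the control array, a difference of 0.17 ± 0.14. Tlr9, for CpG DNA, had 1280 on the LPS array and 1460 on the control array, a difference of -0.14 ± 0.06. Tlr7, for single-stranded RNA, had 871 on the LPS array and 773 on the control array on its bright probe, a difference of 0.22 ± 0.06. Across all measured genes, 17.1% lay above Tlr3, 13.6% above Tlr7 and 24.6% below Tlr9.

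The 3 probes of Tlr7 differed in whether they were above background. The bright probe was above background on both arrays. The probe 283 bases away, matched to the same RefSeq transcript, had 19.0 on the LPS array and 15.2 on the control array and was above background on neither. The probe 4351 bases away, matched to another Tlr7 transcript, had 3.60 on the LPS array and 3.42 on the control array and was also above background on neither. The bright probe starts with a CT repeat of 10 bases, given in capitals below. It shares 16 bases with a probe of another gene, as the Tlr9 probe also does. Runs of at least 12 bases were shared with 32 probes of other genes, the most of any member probe, against 6 for the Tlr9 probe. Which of the probes follows Tlr7 was not tested, so the level of Tlr7 rests on 1 of 3 probes. The first 30 bases of each are shown for comparison (chrX in mm9, minus strand, at 163742863 to 163742922, 163743146 to 163743205 and 163747214 to 163747273).
Tlr7 bright probe: TCTCTCTCTCtgatactgaactgtaccaga
Tlr7 near probe: cataaatgaaggtctgaatttttcctaaca
Tlr7 far probe: atgtaatgctgcttctgtatcttaaaaact

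**Figure D4:**
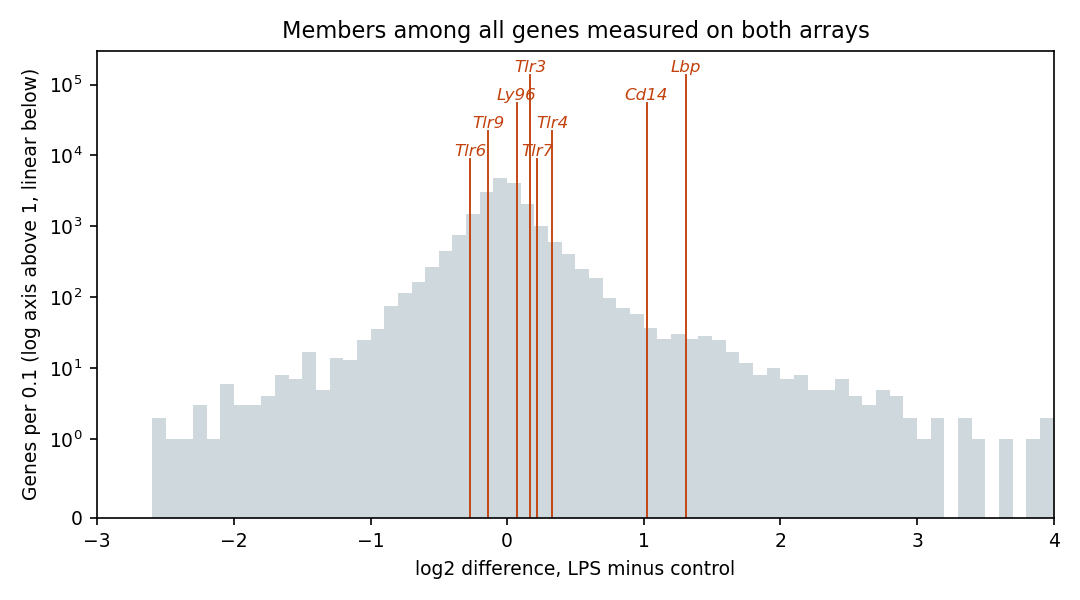
Number of genes per 0.1 of log2 difference, LPS minus control (grey bars, log axis above 1), over the 20380 genes measured on both arrays, with lines at the 8 members measured on both arrays. Cd14 and Lbp lie in the upper tail, at 1.02 and 1.31, and the other 6 lie between -0.27 and 0.33; the axis leaves out 18 genes above 4 and 3 below -3.

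Promoters were looked up for the members. The RefSeq table (GRCm38.p6) held 6 promoters, of 5 of the 10 genes (Tlr2, Tlr3, Tlr5, Tlr6 and Tlr9), each reaching from 250 bases before to 50 after a gene's start. It held none for Lbp and Cd14, the 2 measured members at least 2-fold higher, so members that differed and members that did not could not be compared. They were searched on both strands for the NF-kB consensus, for an interferon-response motif and for TGACTCA, an AP-1 motif. The NF-kB consensus was in 8.46% of all 32851 promoters, the interferon-response motif in 3.44% and TGACTCA in 5.2%. Tlr2 held the NF-kB consensus in 2 stretches, beginning 173 and 8 bases before its start, the first with overlapping matches and both reading on either strand. Tlr3 held 1 match, beginning 211 bases before its start. Of the 2 Tlr6 promoters, 1 held the interferon-response motif in 2 overlapping copies, Tlr9 held TGACTCA once, and that of Tlr5 held none of the 3. The promoters of Tlr2 (chr3:83841559-83841858, minus strand) and Tlr3 (chr8:45410331-45410630, minus strand) are shown because both hold the NF-kB consensus, in capitals, while their differences were a bound of 1.17 and a value of 0.17.
Tlr2: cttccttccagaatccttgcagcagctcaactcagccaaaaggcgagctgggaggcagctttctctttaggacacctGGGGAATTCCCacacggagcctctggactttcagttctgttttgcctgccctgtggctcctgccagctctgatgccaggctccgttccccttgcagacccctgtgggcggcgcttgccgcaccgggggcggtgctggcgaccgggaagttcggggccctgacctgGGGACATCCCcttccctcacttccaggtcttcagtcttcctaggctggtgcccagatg
Tlr3: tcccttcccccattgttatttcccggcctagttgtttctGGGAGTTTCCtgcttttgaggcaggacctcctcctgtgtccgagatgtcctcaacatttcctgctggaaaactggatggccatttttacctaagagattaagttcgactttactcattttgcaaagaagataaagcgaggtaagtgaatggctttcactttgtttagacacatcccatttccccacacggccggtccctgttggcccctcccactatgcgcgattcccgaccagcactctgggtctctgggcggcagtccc
A match is a stretch of letters and says nothing of binding in these cells.

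The wider pathway was read from lists of 75 further genes, all on the arrays. Both arrays measured 54 of them. Of those, 5 stood 2-fold or more above the control array, 0 stood as far below it, and 49 lay between. Their median was 0.08. Over all measured genes, 1.46% were at least 2-fold higher and 0.569% were at least 2-fold lower. The same shares are the background for the counts of each list below. The lists were chosen with earlier results of these data known. A larger share in them can come from that choice alone, so no conclusion is drawn from it.

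Among genes listed as accessory or chaperone, for folding, moving or assisting the receptors, 1 of 11 measured was 2-fold higher and the median was 0.08. That gene was Lrrc32, listed here though it encodes a surface protein that docks latent TGF-beta. It had 1150 on the LPS array and 214 on the control array, a difference of 2.47 ± 0.06. The other 10 measured genes lay under 2-fold. Unc93b1, whose product carries the endosomal receptors out of the endoplasmic reticulum, followed at 0.54 ± 0.14. The lowest were Hmgb1 at -0.18 ± 0.03 and Cnpy4 at -0.16 ± 0.06. Of other receptor genes, only Tlr13, a sensor of bacterial ribosomal RNA in mouse, was measured on both arrays of the 6 listed, at -0.13 ± 0.06.

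Genes for binding or disarming LPS had 1 of 7 measured members at least 2-fold higher and a median of -0.11. Itln1, a lectin for microbial sugars, was highest, with 11100 on the LPS array against 3600 on the control array and a difference of 1.67 ± 0.03. The antimicrobial peptide gene Camp stood at 0.54 ± 0.14, and at -0.12 with normexp background correction. Apoe and Lcat stood lowest, at -0.59 ± 0.14 and -0.54 ± 0.14, and at -0.48 and -0.2 with normexp. Ltf, the lactoferrin gene, passed the background flag just on the LPS array and was at least 8.18-fold higher there, or at least 2.66-fold with normexp. Bpi, which encodes a protein that binds and neutralizes LPS, passed it just on the control array, with LPS at least 2.61-fold lower, or at least 1.42-fold with normexp. Both were chosen for mention from their values. Cd36, a scavenger receptor gene of the accessory list, was also chosen for mention from its value. It passed the background flag just on the control array, which puts LPS at least 1.85-fold lower, or at least 1.26-fold with normexp. The brightest negative control spot on the LPS array had a processed signal of 104, where Ltf had 126. On the control array the brightest had 60.1, above Bpi at 45.5 and Cd36 at 32.3.

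Downstream genes were mostly level. Of 3 measured adaptors, 0 reached 2-fold. Myd88 stood at 0.42 ± 0.04, Ticam1 at 0.17 ± 0.06 and Tirap at -0.03 ± 0.06. Ticam2, whose product links TLR4 to the interferon arm, and Sarm1 were above background on neither array. Of 19 kinase and ligase genes 1 was 2-fold higher, Ikbke, which encodes a kinase of interferon regulatory factors, with 275 on the LPS array and 94.3 on the control array. Traf3, a ligase of the same arm, stood at 0.58 ± 0.03, and Ikbkg and Peli1 were lowest at -0.23 ± 0.06 and -0.16 ± 0.04.

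Of 13 measured inhibitor genes, 2 stood 2-fold or more above the control array and 0 as far below it, with a median of 0.27. Tnfaip3, which encodes the ubiquitin-editing brake A20, had 3520 on the LPS array and 847 on the control array, a difference of 2.10 ± 0.04. Irak3, which encodes a kinase-like brake on the receptor complex, had 178 on the LPS array and 85.6 on the control array, a difference of 1.1 ± 0.14 that was 0.72 with normexp. Socs1, a brake on cytokine signalling, and Sigirr, a receptor gene of this list, were lowest at -0.68 ± 0.14 and -0.29 ± 0.04. Nod2, listed here though best known as a sensor of bacterial cell wall and chosen for mention from its value, passed the background flag just on the LPS array, with 99.0 against 3.45 on the control array. It was at least 6.41-fold higher, and at least 2.34-fold with normexp. The brightest negative control spot on the LPS array had a processed signal of 104, above that of Nod2.

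**Figure D5:**
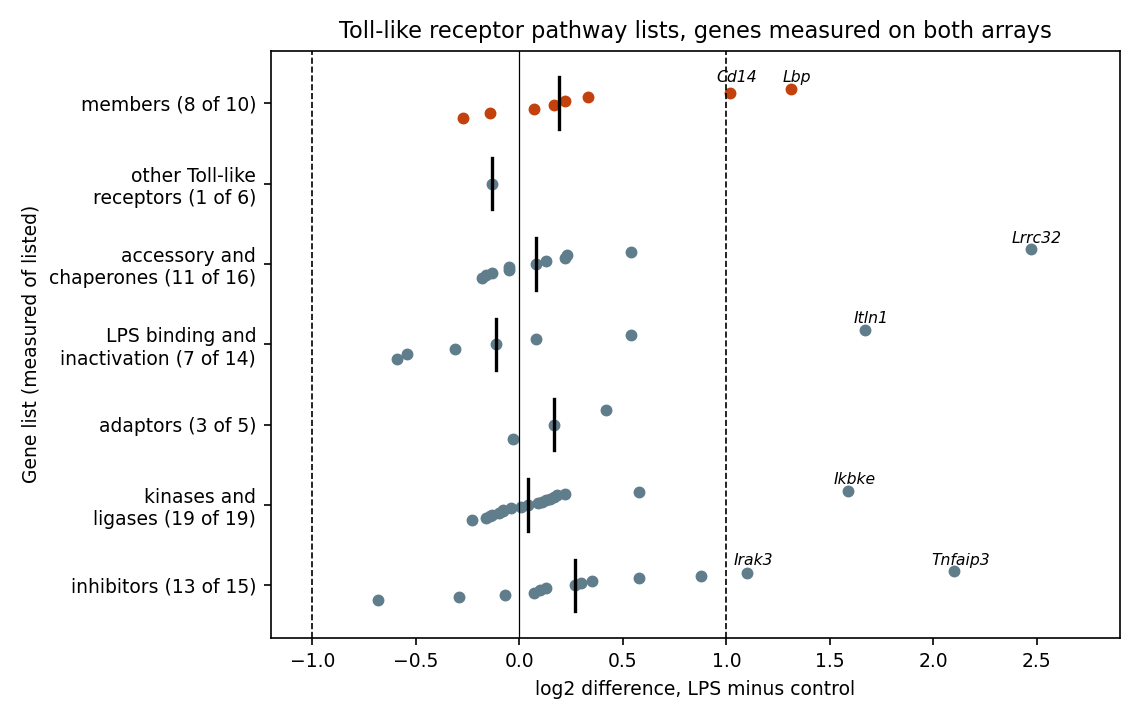
Log2 difference, LPS minus control, of each gene measured on both arrays (points) in the members and 6 further pathway lists, with the list's median as a black line and 2-fold as dashed lines. Of the further genes, 5 lie past the upper dashed line (Lrrc32, Itln1, Ikbke, Irak3 and Tnfaip3) and 0 past the lower one.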

How the data were processed

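Total RNA of 1 LPS and 1 control sample of CMT93 cells was measured on the same slide; the number of cultures behind each was not given in the sources used here. The deposited intensity values are the scanner software's processed signals (Feature Extraction, version 10.10.1.1 in the file headers), already corrected for background; any later processing by the authors was not used here. Its flag marks spots well above background.

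From there, 223 flagged spots and all control spots were left out. Values were taken to log2, less each array's 75th percentile over its 59305 non-control spots. Spots of a probe were averaged, and a gene took its brightest probe. Symbols were updated by accession through a RefSeq table (GRCm38.p6), which matched 28026 of 55681 probes and added none to the members. On the LPS array 54.7% of spots were well above background and on the control array 55.8%, and 0 were saturated. Spot error came from 254 probes printed 10 times and above background.

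A gene above background on 1 array got a bound, its bright value over the dim array's lowest signal well above background, or over the dim value where that was higher. Spots over that lowest signal can lack the flag, so "at least" describes this bound and is not a strict limit. No test was run, and sizes are described at 2-fold. The naming rule took all 10 members and the 2 highest and 2 lowest measured genes of each pathway list; marker lists are given by their counts and sums. The members and lists were chosen with earlier results of these data known, and 1 listed marker is not reported here by name. Alternatives were normexp (offset 50), background-subtracted signal floored at 1, quantile, cyclic loess (span 0.7), centring on the median, a 75th percentile over detected probes alone, the median over probes, a looser flag and no filter. Normexp, quantile and loess used limma 3.58.1 (R 4.3.3), and the rest Python 3.11.15. The gene summary was tested on simulated data.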

Additional observations from a re-analysis of the deposited data

How the results depend on the processing

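The 8 members measured on both arrays kept their sign under all 9 alternatives. Among list genes named above, Camp turned from 0.54 to -0.12 with normexp. Cd14 ranged from 1.0 to 1.03 and Lbp from 1.27 to 1.34, the lower value of Lbp with normexp. Cd14 fell just under 2-fold with normexp and with quantile normalization, which left 1 member at least 2-fold higher in each. The bound of Tlr2 was 0.36 with normexp, whose offset of 50 exceeds its signal of 34.9, and 0.93 with the floored signal. Genes at least 2-fold higher and lower numbered 170 and 37 with normexp, 747 and 555 with the looser background flag, and 1362 and 1178 with no filter. The last pair of settings tested more genes (24631 and 34761, against 20380), while normexp tested 20356. Pathway genes at least 2-fold higher numbered 8 with no filter, and those lower 1 with the looser flag and 2 with no filter. Other causes of these changes were not tested. The median of all measured genes lay between -0.04 and 0.05. No paired analysis was possible because each group had 1 array, and none could be left out.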
